A study of Homo sapiens with 4 samples.

Results

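The 6 miRNAs described here are both arms of miR-191, miR-425 and miR-423, which are often used as reference miRNAs, that is, as the miRNAs against which others are normalized. They were chosen by name, with earlier results of these data known: every row of the read count table that carries the name of hsa-miR-191-5p, hsa-miR-191-3p, hsa-miR-425-5p, hsa-miR-425-3p, hsa-miR-423-5p or hsa-miR-423-3p was taken, which gave 166 of the 12689 end isoforms and 6 of the 1644 miRNA names. HCT116, a cell line from a human carcinoma of the colon, was transfected with 4 plasmid mixtures on a pcDNA3 backbone, and 1 TruSeq small RNA library was sequenced from each mixture. The empty vector cells received the vector alone. The wild-type cells received plasmids of pri-mir-30a, pri-mir-142, pri-mir-30d, pri-mir-576, pri-mir-885, pri-mir-128-1, pri-mir-342, pri-mir-200b and pri-mir-16-1. The mutant 1 cells received variants of these pri-miRNAs together with the unaltered pri-mir-16-1, and the mutant 2 cells are listed with a variant of pri-mir-342, with pri-mir-16-1 and with the vector. Which mixture is mutant 1 and which is mutant 2 was taken from the order in which the mixtures are listed. The study asked how mismatched and wobble base pairs in a pri-miRNA affect its cleavage in cells, and none of the deposited plasmid sequences encodes miR-191, miR-425 or miR-423. With 1 library per condition there was no replicate check: no p-values are given, the intervals in brackets are 95% binomial intervals (exact, Clopper-Pearson, unless another method is named), and since the reads have no molecular identifiers these intervals cover counting error only.

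A miRNA is cut out of its primary transcript in the nucleus by the Microprocessor, made of DROSHA and DGCR8, and the hairpin that results is cut again in the cytoplasm by DICER. Of the 5p and 3p arms of the duplex, one is usually loaded into an Argonaute protein, where bases 2 to 8 from its 5p end, the seed, pair with target mRNAs, so that a shift of the start changes the seed whereas trimming or extension of the 3p end does not. A reference miRNA is useful only if its level is the same in all samples compared, which is why it is usually picked for its stability.

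MIR191 (chr3:49020618-49020709) and MIR425 (chr3:49020148-49020234) lie on the minus strand of GRCh38.p14 with 383 nt between them, and all 4 DALRD3 transcripts of GENCODE release 44 that span each of them hold it in intron 1. MIR423 (chr17:30117079-30117172) lies on the plus strand, and 11 of the 12 NSRP1 transcripts that span it hold it in an intron, which is intron 1 in 10 of them, whereas 1 has an exon there. Mature sequences from RefSeq (GRCh38.p14) were found for 5 of the 6 members. They are shown with the isoforms on which the results turn, which are the most frequent or the most variable ones, with bases 2 to 8 of each in capitals. The seeds of the 5 members shown, which leave out miR-425-5p, differ from each other, and a start 1 nt away moves the seed by 1 base. Among the mature miRNAs searched, only miR-3184-5p has the same bases 2 to 8 as one of the forms shown, namely miR-423-5p.
miR-191-5p, annotated ends: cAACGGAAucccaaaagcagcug
miR-191-5p, start 1 nt downstream: aACGGAAUcccaaaagcagcug
miR-191-3p, annotated ends: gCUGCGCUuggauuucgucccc
miR-191-3p, start 1 nt downstream: cUGCGCUUggauuucgucccc
miR-425-3p, annotated ends: aUCGGGAAugucguguccgccc
miR-425-3p, start 1 nt upstream and end 1 nt shorter: cAUCGGGAaugucguguccgcc
miR-423-5p, annotated ends: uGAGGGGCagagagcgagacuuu
miR-423-5p, end 2 nt shorter: uGAGGGGCagagagcgagacu
miR-423-3p, annotated ends: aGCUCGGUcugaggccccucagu
miR-423-3p, start 1 nt upstream: aAGCUCGGucugaggccccucagu
miR-423-3p, end 4 nt shorter: aGCUCGGUcugaggccccu

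The libraries held 14544516 miRNA reads with the empty vector, 17364117 with wild-type plasmids, 19834361 with mutant 1 and 17136599 with mutant 2. Because the plasmids add reads, values were divided by the reads of untransfected miRNAs, those that no deposited plasmid sequence encodes, which numbered 13381088, 12241852, 14027145 and 15134221 in the same order. The unit, RPM, is the number of reads in 1000000 of these. Other scalings tried were all miRNA reads, the reads of miR-16-5p, and the library sizes that edgeR (TMM) and DESeq2 (median of ratios) estimate from the miRNAs themselves. The names left out took 7.999% of reads in the empty vector library, all of them endogenous, 29.5% with wild-type plasmids, 29.3% with mutant 1 and 11.7% with mutant 2. Together the 6 members took 15.3%, 15.0%, 12.5% and 14.8% of the untransfected reads, so that the mutant 1 library had the lowest share. All 6 members passed the minimum of a mean of 50 reads over the 4 libraries, as did 476 of the 1608 untransfected miRNAs.

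MiR-191-5p was the second most abundant untransfected miRNA in each library, after miR-21-5p, and made up nearly all reads of the members. It had 1991607 reads with the empty vector, 1778259 with wild-type plasmids, 1696775 with mutant 1 and 2172624 with mutant 2. These are 148837, 145261, 120964 and 143557 RPM, so that by this scaling 3 libraries lay close together and the mutant 1 library lay below them. The highest value was 1.23 times the lowest (1.228 to 1.233), and without the mutant 1 library this ratio was 1.04. The gap below wild-type depends on the scaling. The ratio of mutant 1 to wild-type was 0.833 here, but 0.983 with TMM and 0.952 with the median of ratios. Divided by the main arms of the other loci it was 1.042. MiR-191-3p, the arm of the same hairpin with far fewer reads, had 461, 541, 315 and 521 reads in the same order of libraries, or 34.5, 44.2, 22.5 and 34.4 RPM. The empty vector and mutant 2 libraries did not differ beyond counting error, with a ratio of mutant 2 to empty vector of 0.999 (0.880 to 1.14). The wild-type library was highest and the mutant 1 library lowest, 1.97-fold apart (1.71 to 2.27), and without the mutant 1 library the ratio of highest to lowest was 1.28.

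MiR-425-5p, the more abundant arm of the neighbouring hairpin, had 22966 reads with the empty vector, 24414 with wild-type plasmids, 26472 with mutant 1 and 27104 with mutant 2, or 1716, 1994, 1887 and 1791 RPM. Its highest and lowest libraries, wild-type and empty vector, were 1.16-fold apart (1.14 to 1.18), whereas with all miRNA reads wild-type was below empty vector, at a ratio of 0.890. MiR-425-3p had 2562, 2814, 3154 and 3272 reads, or 191.5, 229.9, 225 and 216 RPM, with the same libraries at the ends and 1.20-fold between them (1.14 to 1.27), which with all miRNA reads turned to a ratio of wild-type to empty vector of 0.920. For miR-425-3p, the ratio of mutant 1 to wild-type was 0.978 (0.929 to 1.03), so that these libraries did not differ beyond counting error, whereas with TMM it was 1.155. For miR-425-5p this ratio was 0.946. It was 1.117 with TMM, 1.081 with the median of ratios and 1.262 when divided by the main arms of the other loci. Under those alternatives mutant 1 was the highest library for both arms. By untransfected reads, both arms of miR-425 were thus lowest with the empty vector, in contrast to both arms of miR-191, which were lowest in the mutant 1 library.

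MiR-423-5p had 14186 reads with the empty vector, 15261 with wild-type plasmids, 16023 with mutant 1 and 17643 with mutant 2, or 1060.2, 1247, 1142 and 1166 RPM. It was lowest with the empty vector and highest in the wild-type library, 1.18-fold apart (1.149 to 1.203), and with all miRNA reads wild-type was below empty vector, at a ratio of 0.901. The ratio of mutant 1 to wild-type was 0.916 by untransfected reads. It was 1.082 with TMM, 1.047 with the median of ratios and 1.032 when divided by the main arms of the other loci. Under those scalings mutant 1 was the highest library. MiR-423-3p had 18184, 17861, 13817 and 19554 reads, or 1359, 1459, 985 and 1292 RPM. Here the mutant 1 library was lowest, and the wild-type library was 1.48 times as high (1.45 to 1.51), an interval that holds the 1.5-fold threshold used for counts. With all miRNA reads the highest library was instead the empty vector, as it was for miR-191-3p, and with untransfected reads but without the mutant 1 library the ratio of highest to lowest was 1.13. By untransfected reads the arms of 1 hairpin therefore differed in which library was lowest, whereas with all miRNA reads mutant 1 was lowest for both. In reads, miR-191-5p stood above all other members in every library, followed by miR-425-5p, and the order of the miR-423 arms was not the same in all of them: miR-423-3p was above miR-423-5p in 3 libraries and below it in the mutant 1 library, whereas with only reads at the annotated 5p start it was below in all 4.

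**Figure D1:**
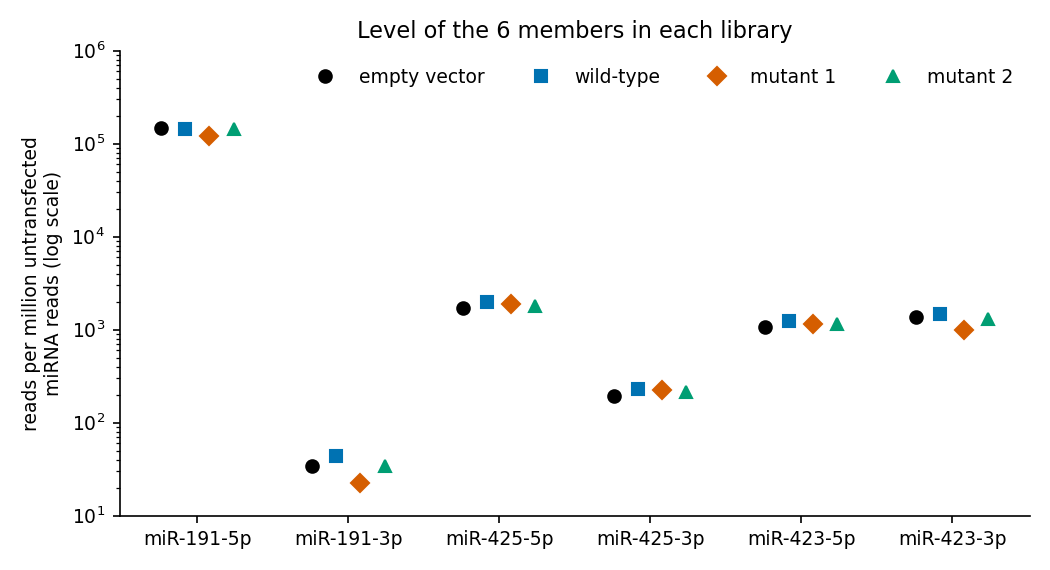
Level of the 6 members in each library, in RPM of untransfected reads on a log axis, with 1 point per library and no error bar. MiR-191-5p lies between 120964 and 148837 and miR-191-3p between 22.5 and 44.2, and the mutant 1 point is lowest for both arms of miR-191 and for miR-423-3p.

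The question for a reference miRNA is how far it moves relative to other miRNAs of the same libraries. Past the fold here means more than 1.5-fold in either direction. Of the 6 members, 1 (miR-191-3p) was past 1.5-fold between its highest and lowest library, against 160 of 476 untransfected miRNAs (33.6%). Without the mutant 1 library 0 members were past the fold. The share of all miRNAs without that library was not computed, so this 0 has no background to be read against. The median of the highest to lowest ratio was 1.22 over the members and 1.38 over the 476 miRNAs. A count of 1 in 6 near such a background does not set the members apart. Low counts scatter more, and the ratio was therefore also ranked among miRNAs of like abundance, from the smallest ratio up. Among the 88 miRNAs with a mean over 10000 reads, miR-425-5p ranked 21, miR-423-5p 25, miR-191-5p 39 and miR-423-3p 72. The median ratio of that class was 1.27 and 14 of its miRNAs were past 1.5-fold. MiR-425-3p ranked 19 of the 84 miRNAs with means of 1000 to 10000 reads, where the median was 1.34. MiR-191-3p ranked 274 of the 304 with means of 50 to 1000 reads, where the median was 1.42. By untransfected reads, miR-425 and miR-423-5p thus lay in the more stable part of their classes, miR-191-5p near the middle, and miR-423-3p and miR-191-3p in the more variable part. This order depends on the scaling, since with TMM miR-191-5p ranged 1.13-fold, less than miR-425-5p at 1.20 and miR-423-5p at 1.17. It also depends on the mutant 1 library. By untransfected reads without that library, miR-191-5p ranged 1.04-fold and miR-423-3p 1.13-fold. Both were then more even than miR-425-5p at 1.16, miR-423-5p at 1.18 and miR-425-3p at 1.20.

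**Figure D2:**
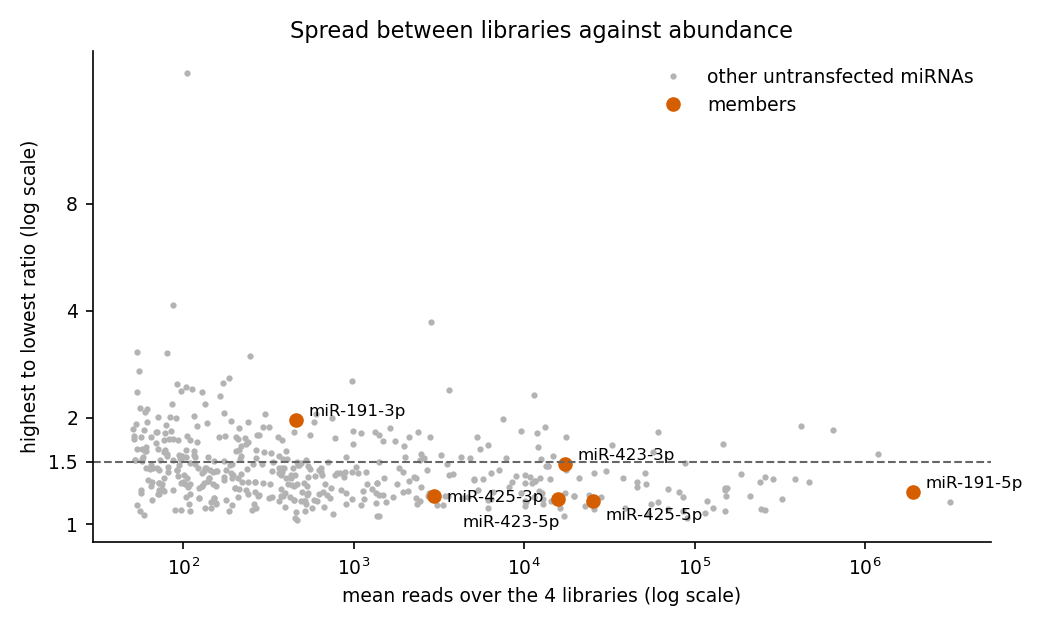
Ratio of the highest to the lowest library against mean reads for untransfected miRNAs that averaged 50 reads or more, both on log axes, with the members named and the dashed line at 1.5-fold; 1 miRNA with 0 reads in a library is not drawn. MiR-191-3p, at 1.97, is the only member above the line, and miR-423-3p, at 1.48, lies just under it.

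Between the wild-type and empty vector libraries, 0 of the 6 members were past 1.5-fold, against 10.9% of the 476 miRNAs. The largest difference was that of miR-191-3p, with a ratio of wild-type to empty vector of 1.28 (1.13 to 1.46), which was 0.983 with all miRNA reads and 0.625 with miR-16-5p reads. Between the mutant 2 and empty vector libraries 0 of 6 were past the fold as well, against 9.45%, and the ratios ran from 0.951 for miR-423-3p to 1.13 for miR-425-3p, which fell to 0.460 with miR-16-5p reads. The mutant 1 library differed more. Against the empty vector, 1 of 6 was past the fold, against 21.2% of all, and this was miR-191-3p with a ratio of 0.652 (0.563 to 0.754), while miR-423-3p was at 0.725 (0.709 to 0.741). With TMM or median-of-ratios scaling no member was past the fold in that comparison, against 21.2% of all with either, and miR-191-3p was then at 0.710 and 0.699. Divided by the main arms of the other 2 loci, miR-191-3p was at 0.730 and not past the fold, while miR-425-3p was, at 1.53. The share of all miRNAs past the fold was then 30.9% with the loci used for miR-425. It was 21.6% with those used for miR-191 or for miR-423. Against the wild-type library, 1 of 6 was past the fold, against 15.8%, again miR-191-3p, with a ratio of 0.508 (0.441 to 0.585), and miR-423-3p was at 0.675 (0.660 to 0.690). These comparisons share libraries and are not independent of each other.

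The choice of scaling set how these miRNAs appear. Relative to the median of the 476 miRNAs, a measure that no scaling of the libraries changes, the log2 ratio of mutant 1 to empty vector was -0.28 for miR-191-5p, -0.60 for miR-191-3p, 0.15 for miR-425-5p, 0.25 for miR-425-3p, 0.13 for miR-423-5p and -0.45 for miR-423-3p. For mutant 1 against wild-type, the same measure was -0.11 for miR-191-5p, -0.82 for miR-191-3p, 0.07 for miR-425-5p, 0.12 for miR-425-3p, 0.03 for miR-423-5p and -0.41 for miR-423-3p. In both comparisons, both arms of miR-191 and miR-423-3p lay below the median miRNA, and both arms of miR-425 and miR-423-5p above it. The median log2 ratio itself moved with the scaling. For mutant 1 against empty vector it was -0.02 with untransfected reads, -0.40 with all miRNA reads, -1.07 with miR-16-5p reads, 0.11 with TMM and 0.08 with the median of ratios. For mutant 1 against wild-type it was -0.15, -0.15, -0.17, 0.09 and 0.04 in that order. For wild-type against empty vector it was 0.09, -0.30, -0.95, -0.03 and -0.01, and for mutant 2 against empty vector 0.06, -0.00, -1.24, 0.01 and 0.02. With these shifts the balance of miRNAs past the fold turned: against the empty vector, 42 were higher and 59 lower in the mutant 1 library with untransfected reads, against 12 and 172 with all miRNA reads, 1 and 414 with miR-16-5p reads, 62 and 39 with TMM and 58 and 43 with the median of ratios. For mutant 1 against wild-type these were 16 higher and 59 lower with untransfected reads but 46 and 20 with TMM and 38 and 25 with the median of ratios. For wild-type against empty vector they were 44 higher and 8 lower with untransfected reads but 9 and 69 with all miRNA reads, 0 and 406 with miR-16-5p reads, 28 and 13 with TMM and 30 and 13 with the median of ratios. For mutant 2 against empty vector they were 35 higher and 10 lower with untransfected reads but 0 and 456 with miR-16-5p reads.

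MiR-16-5p, itself a common reference, was not stable in these libraries, with 226727 reads with the empty vector, 425441 with wild-type plasmids, 492739 with mutant 1 and 628912 with mutant 2. A pri-mir-16-1 plasmid was in the 3 mixtures other than the empty vector. Divided by miR-16-5p reads, all 6 members were past 1.5-fold over the 4 libraries, as were 97.9% of the 476 miRNAs, and the highest library was the empty vector for each of the 6. MiR-191-5p then ranged 2.55-fold, miR-425-5p 2.35-fold and miR-423-3p 2.86-fold. With all miRNA reads, 3 members were past the fold, namely miR-191-5p at 1.60, miR-191-3p at 2.00 and miR-423-3p at 1.79, against 56.9% of the 476 miRNAs. MiR-423-3p ranged 1.27-fold with TMM, and the median of ratios gave 1.148 for miR-191-5p, 1.18 for miR-425-5p and 1.30 for miR-423-3p. MiR-423-3p and miR-191-3p were lowest in the mutant 1 library under all 7 scalings. MiR-191-5p was lowest there under 6 of them and in the wild-type library when divided by the geometric mean of miR-425-5p and miR-423-3p. For miR-425-5p the lowest library was the empty vector under 5 scalings, mutant 1 with all miRNA reads and mutant 2 with miR-16-5p reads, so that its direction between libraries depends on the scaling.

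Ratios between members within a library need no scaling. For 1 read of miR-425-5p there were 86.7 reads of miR-191-5p with the empty vector, 72.8 with wild-type plasmids, 64.1 with mutant 1 and 80.2 with mutant 2. The ratio of miR-191-5p to its neighbour in the genome thus changed 1.35-fold, more than miR-191-5p or miR-425-5p did alone by untransfected reads. The ratio of miR-191-5p to miR-423-3p was 109.5, 99.6, 123 and 111 in that order and changed 1.23-fold. The ratio of miR-425-5p to miR-423-3p was 1.26, 1.37, 1.92 and 1.39 and changed 1.52-fold, with the mutant 1 library highest, whereas without the mutant 1 library it changed 1.10-fold. With the other arm of miR-423 the pair was nearly constant. The ratio of miR-425-5p to miR-423-5p was 1.62, 1.60, 1.65 and 1.54, which is 1.08-fold between the highest and the lowest. This pair was added after its values were seen, together with 2 others that were less constant. The ratio of miR-191-5p to miR-423-5p was 140.4, 117, 106 and 123 and changed 1.33-fold. The ratio of miR-191-3p to miR-425-3p was 0.180, 0.192, 0.0999 and 0.159 and changed 1.92-fold. Its lowest value was that of mutant 1, and the other libraries lay between 0.159 and 0.192.

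The arms of each locus were compared next. For miR-425 the 5p arm held 89.96% of the reads of both arms with the empty vector (89.6 to 90.3%), 89.7% with wild-type plasmids (89.3 to 90.02%), 89.4% with mutant 1 (89.0 to 89.7%) and 89.2% with mutant 2 (88.9 to 89.6%). Its 5p to 3p ratio changed 1.08-fold over the libraries, the rank 2 from the smallest of 124 untransfected hairpins with a mean of at least 50 reads in both arms. The hairpin ahead of it, miR-486, has equal counts under both arms, and the 124 include hairpins whose reads are counted under more than 1 name, such as miR-3184. For miR-423 the 5p arm held 43.8% (43.3 to 44.4%), 46.1% (45.5 to 46.6%), 53.7% (53.1 to 54.3%) and 47.4% (46.9 to 47.9%) in the same order. With all isoforms added, the mutant 1 library was the only one in which the 5p arm was the larger, whereas it was larger in all 4 with only reads at the annotated 5p start, and in mutant 1 and mutant 2 with only the most frequent isoform of each arm. The 5p to 3p ratio of miR-423 rose from 0.780 in the empty vector library to 1.16 in that of mutant 1, 1.49-fold apart (1.44 to 1.53 by a normal approximation on the log scale), and without the mutant 1 library it changed 1.16-fold. For miR-191 there were 4320.2 reads of the 5p arm for each read of the 3p arm with the empty vector, 3287 with wild-type plasmids, 5387 with mutant 1 and 4170.1 with mutant 2. That is a 1.64-fold change (1.43 to 1.88, by the same approximation), and without the wild-type or the mutant 1 library it was 1.29-fold or 1.31-fold. By the 1.5-fold rule 1 locus of 3, miR-191, changed its arm ratio between libraries, against 57.3% of the 124 hairpins, whose median change was 1.56-fold. Without the wild-type or without the mutant 1 library this count was 0, but the share of all hairpins was not computed for those sets of libraries.

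The reads of miR-423 are also counted under the names of miR-3184, which RefSeq places on the opposite strand of the same locus. All 27 isoforms of miR-423-5p have a counterpart under miR-3184-3p at the same genomic position with the same count in each library, as do 31 of the 32 isoforms of miR-423-3p under miR-3184-5p, which cover 69415 of its 69416 reads. The same held, in every isoform they share, for the 25 pairs of mature miRNAs on opposite strands that the search found. That list is not complete, since miR-103a-3p and miR-103b also have equal counts, as do the arms of miR-486. Reads from miR-423 and from miR-3184 can therefore not be told apart in these counts, and each such read enters the untransfected total under both names. Divided by the untransfected reads without the members and miR-3184, a scaling chosen after seeing the data, miR-423-3p ranged 1.53-fold and was past the fold.

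MiR-191-5p began at the annotated base in 97.0% of reads with the empty vector, 97.0% with wild-type plasmids, 97.4% with mutant 1 and 97.2% with mutant 2, and nearly all other reads began 1 nt downstream. For miR-423-5p these shares were 99.4%, 99.6%, 99.6% and 99.5%, and for miR-425-5p 93.9%, 93.4%, 93.4% and 93.5%. The less abundant arms began elsewhere. MiR-191-3p began 1 nt downstream of the annotated base in 73.1%, 77.4%, 76.2% and 75.2% of its reads. MiR-425-3p began 1 nt upstream in 50.5%, 49.3%, 52.1% and 49.1% and at the annotated base in 40.5%, 44.8%, 42.1% and 44.1%. MiR-423-3p began at the annotated base in 75.5%, 76.8%, 76.5% and 77.0% and 1 nt upstream in 23.0%, 21.8%, 22.1% and 21.7%. The most frequent start was the same in all 4 libraries for each member, and most reads of miR-191-3p and of miR-425-3p thus carry another seed than the annotated form, as the sequences above show. From the lowest to the highest library, the leading start of each member varied by 4.35 percentage points in miR-191-3p, 3.01 in miR-425-3p, 1.48 in miR-423-3p, 0.579 in miR-425-5p, 0.349 in miR-191-5p and 0.146 in miR-423-5p. The median over the 172 untransfected miRNAs that averaged 1000 reads or more was 0.478 points, and 22 and 39 of them exceeded the values of miR-425-3p and miR-423-3p, while miR-191-3p has too few reads to belong to that class. The 172 include names that hold reads of a miRNA on the opposite strand. Of these, miR-3184-5p has its starts at the 3p ends of miR-423-3p, and its 3p ends at the starts. The intervals of the highest and lowest libraries overlap for miR-191-3p, at 77.4% (73.7 to 80.9%) and 73.1% (68.8 to 77.1%), and for miR-425-3p, at 52.1% (50.4 to 53.9%) and 49.1% (47.4 to 50.8%). Overlap of separate intervals does not by itself place a difference within counting error. Without the empty vector library the differences were 2.21 points for miR-191-3p, 0.505 for miR-423-3p, 0.133 for miR-425-5p and 0.0606 for miR-423-5p, and without the mutant 1 library 1.43 for miR-425-3p and 0.143 for miR-191-5p. With only reads at its most frequent 3p end, miR-191-3p, whose counts are low, differed by 8.44 points.

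The 3p end varied more between libraries than the start in miR-425-5p and both arms of miR-423, but not in miR-191-5p and miR-425-3p. For miR-191-5p this order turned without the mutant 1 library, with differences of 0.143 percentage points at the start and 0.233 at the end. MiR-191-5p ended at the annotated base in 97.3% of reads with the empty vector, 97.1% with wild-type plasmids, 97.1% with mutant 1 and 97.2% with mutant 2, a difference of 0.233 percentage points, which was exceeded by 165 of the 172 miRNAs and was 0.0753 points without the empty vector library. MiR-425-3p ended 1 nt short of the annotated base in 59.3%, 60.0%, 58.8% and 60.1%, a difference of 1.37 points that 135 of the 172 exceeded and that was 0.787 without the mutant 1 library and 3.45 with only reads at its most frequent start. MiR-191-3p ended at the annotated base in 55.7%, 56.7%, 49.5% and 55.9%, a difference of 7.22 points that fell to 0.998 without the mutant 1 library, so that whether its end or its start varied more depends on that library. In miR-425-5p the most frequent end was 2 nt beyond the annotated one. It held 45.3% of reads with the empty vector (44.7 to 45.9%), 48.1% with wild-type plasmids (47.4 to 48.7%), 58.4% with mutant 1 (57.8 to 59.0%) and 52.4% with mutant 2 (51.8 to 53.0%). Reads that ended 1 nt short took 31.0%, 25.99%, 16.4% and 21.5% in the same order. The long form thus rose as the short form fell, with the empty vector and mutant 1 libraries at the ends.

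The arms of miR-423 had the same libraries at the extremes. MiR-423-5p ended at the annotated base in 52.2% of reads with the empty vector (51.3 to 53.0%), 54.6% with wild-type plasmids (53.9 to 55.4%), 64.1% with mutant 1 (63.3 to 64.8%) and 60.2% with mutant 2 (59.4 to 60.9%). Its form shorter by 2 nt took 26.9%, 24.8%, 15.7% and 20.8%. MiR-423-3p ended at the annotated base in 56.8% (56.1 to 57.5%), 64.9% (64.2 to 65.6%), 73.5% (72.8 to 74.2%) and 64.5% (63.8 to 65.1%). Its form shorter by 4 nt took 18.1%, 11.9%, 7.69% and 12.6%. The difference of 16.7 percentage points between libraries in the annotated end of miR-423-3p was the largest of the 172 miRNAs, that of miR-425-5p, 13.1 points, was exceeded by 3 of the 172 and that of miR-423-5p, 11.9 points, by 8, against a median of 3.52 points. Without the mutant 1 library these 3 differences were 8.13, 7.10 and 8.01 points, and without the empty vector library that of miR-423-3p was 9.04 points.

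The level of miR-423-3p was also split by its 3p end. Its reads that ended 3 nt or more short were at 394 RPM with the empty vector, 294 with wild-type plasmids, 125 with mutant 1 and 275 with mutant 2. Its other reads were at 965, 1165, 860 and 1017 RPM, so that the mutant 1 library was lowest in both. Against the empty vector, the mutant 1 library was lower by more RPM in the short reads than in the others, whereas against wild-type it was lower by more in the others. With only reads whose 3p end is annotated or longer, a choice made after seeing the data, miR-423-3p ranged 1.31-fold. That choice keeps the annotated end, whose share of miR-423-3p reads was highest in the mutant 1 library. It widened the range of other members, to 2.28 for miR-191-3p, 1.34 for miR-425-5p, 1.35 for miR-425-3p and 1.33 for miR-423-5p. The part of trimming in these levels was not tested.

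Longer reads in the mutant 1 library were not particular to the members. From the offsets of the ends, the mean read was longer in the mutant 1 library than with the empty vector for 5 of the 6 members, against 92.4% of the 172 miRNAs. The exception was miR-191-5p, with a difference of -0.00174 nt. The difference was 0.676 nt for miR-423-3p, 0.430 nt for miR-425-5p and 0.343 nt for miR-423-5p, and the median over the 172 was 0.0662 nt. In the mutant 2 library the mean read was longer for 5 of the 6 members as well, against 87.2%, and in the wild-type library for 5 of 6, against 61.6%. Over all untransfected miRNAs with a mature sequence, reads of 20 nt or less took 5.12% with the empty vector, 4.82% with wild-type plasmids, 3.32% with mutant 1 and 4.36% with mutant 2. The part of size selection of the library, trimming in the cells and transfection in these differences was not tested, and with 1 library per condition they cannot be told apart from the condition.

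The miRNAs most like each reference in pattern were those with the smallest SD, over the 4 libraries, of the log2 ratio to it, among 167 other untransfected miRNAs that averaged 1000 reads or more. For miR-191-5p these were miR-330-5p, miR-181a-3p and miR-181a-2-3p, with SDs of 0.02, 0.02 and 0.03, against a median of 0.17 over the 167. MiR-330-5p was at 265 RPM with the empty vector, 257 with wild-type plasmids, 220.4 with mutant 1 and 259 with mutant 2. For miR-425-5p they were miR-23b-3p, miR-126-3p and miR-30b-5p, with SDs of 0.03, 0.03 and 0.04 and a median of 0.18. For miR-423-3p the first was miR-3184-5p, which holds nearly the same reads, followed by miR-3176 and miR-375-3p with SDs of 0.05 and 0.06 and a median of 0.21.

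Other miRNAs often used as references give a measure of what was usual in these libraries. Of a list of 12, miR-16-5p is encoded by a plasmid. Of the other 11, 10 had a mean of at least 50 reads, and 0 of these 10 were past 1.5-fold over the 4 libraries, against 33.6% of the 476 miRNAs, with a median ratio of 1.26 against 1.22 for the members and 1.38 for all 476. Most of the 10 averaged over 10000 reads, and in that class the median ratio was 1.27 and 15.9% were past the fold. The smallest ratio was that of miR-93-5p, 1.08, and the largest of the 10 that of miR-23a-3p, 1.42. MiR-24-3p, with a mean of only 23 reads, was at 2.22, and with it 1 of 11 was past the fold and the median was 1.31. Among all untransfected miRNAs that averaged 1000 reads or more, the most even were miR-92a-3p at 1.04, miR-190a-5p at 1.05 and miR-2467-5p at 1.06, and the least even were miR-145-5p at 3.70, miR-33b-5p at 2.39 and miR-18a-5p at 2.31. Each of the 6 members lay between these ends.

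All 6 markers chosen for epithelial colorectal cells had reads in each library, among them miR-200c-3p with 8914, 8969, 9380 and 9898 RPM and miR-192-5p with 3003, 2441, 1791 and 2387 RPM. The lowest were miR-194-5p with 31.8, 33.7, 33.5 and 34.4 RPM and miR-215-5p with 34.97, 25.98, 24.2 and 29.2 RPM, which lay below miR-143-3p and miR-145-5p, markers of fibroblasts. Of 13 markers of other cell types, summed to 326, 373, 468 and 383 RPM, 4 had no read in any library (miR-1-3p, miR-133a-3p, miR-206 and miR-124-3p). Since only unambiguously aligned reads were kept, a 0 for miR-1-3p, miR-133a-3p or miR-124-3p, which have several loci, need not mean absence. The low counts of miR-24-3p, and of any other marker or reference with several loci, have the same limit. The 10 outside the fibroblast markers summed to 6.43, 6.86, 6.70 and 7.73 RPM. Nearly all of the sum came from miR-143-3p, with 229, 186, 125 and 164 RPM, and miR-145-5p, with 90.7, 180.4, 336 and 212 RPM. These are encoded side by side and moved in opposite directions between the empty vector and mutant 1 libraries, while the third fibroblast marker, miR-199a-3p, had 2 reads in mutant 2 and 0 elsewhere and, having several loci, bears the same limit. The part of these miRNAs in the values of the members was not tested.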

How the data were processed

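Small RNA was sequenced in 4 libraries, 1 per plasmid mixture. The deposited values are raw read counts per miRNA isoform, which the authors made by trimming with Cutadapt 1.15, filtering by quality with FASTX-Toolkit 0.0.13, alignment to hg38 with Bowtie2 2.2.9 and assignment of unambiguous reads to miRBase loci; reads were 18 to 26 nt long. The isoform offsets were read as positive for a shorter read at either end, since this gave lengths of 18 to 26 nt for every isoform of the 1460 names with a mature sequence, against 84.5% with the other sign at the 3p end. Reads were not realigned. Counts were added per miRNA and divided by untransfected reads (Python 3.11.15, pandas 2.3.3, numpy 2.4.6, scipy 1.17.1, matplotlib 3.10.9); edgeR 4.0.16 and DESeq2 1.42.0 in R 4.3.3 gave only alternative library sizes. The range and interval calculations were tested on simulated data. The miRNAs named are the members, 12 other references, the 3 most like each main arm in pattern, the 3 most and 3 least even, and cell markers. MiR-3184, miR-103b and miR-486 were named because their counts equal, or nearly equal, those under another name. The members, lists and comparisons were chosen with earlier results of these data known. Alternatives were other scalings, thresholds, read minimums, isoform choices, a pseudocount of 1 and the loss of each library.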

Additional observations from a re-analysis of the deposited data

How the results depend on the processing

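Of the alternatives tried for the ranges, counts and shares above, 173 left the value within its 95% interval (counts within 1.5 times) and 93 moved it further, and for the ratios of members between libraries these were 70 and 98. Wide intervals, as for the ends of miR-191-3p, also hold large changes; the cause was not tested. The number of members past 1.5-fold over the 4 libraries, beside the share of all 476 miRNAs, was 3 with all miRNA reads (56.9%), 6 with miR-16-5p reads (97.9%), 2 with the main arms of the other loci (32.8% to 42.2%, by the loci used), 2 with untransfected reads without the members and miR-3184 (33.8%), 2 at a lower threshold, a ratio 25% above 1 or its inverse (70.4%), and 0 at 2-fold (6.51%). With miR-16-5p reads it was 6 for each condition against the empty vector (85.3% for wild-type, 87.2% for mutant 1 and 95.8% for mutant 2). For mutant 1 against empty vector it was 3 with all miRNA reads (38.7%), 0 with TMM and 0 with the median of ratios (21.2% each). At the lower threshold it was 1 for wild-type against empty vector (31.1%), 2 for mutant 1 against empty vector (46.8%) and 2 for mutant 1 against wild-type (44.96%), and at 2-fold the last 2 were 0 (3.99% and 2.31%). The loci past the fold in the arm ratio were 2 at the lower threshold (82.3% of the 124 hairpins) and 0 at 2-fold (20.97%). The ratio of the highest to the lowest library moved as follows. Scaled by all miRNA reads, it was 1.60 for miR-191-5p, 1.19 for miR-425-5p, 1.27 for miR-423-5p and 1.79 for miR-423-3p. Scaled by miR-16-5p reads, it was 2.55 for miR-191-5p, 3.18 for miR-191-3p, 2.35 for miR-425-5p, 2.17 for miR-425-3p, 2.23 for miR-423-5p and 2.86 for miR-423-3p. Scaled by TMM, it was 1.13 for miR-191-5p, 1.67 for miR-191-3p, 1.20 for miR-425-5p, 1.28 for miR-425-3p and 1.27 for miR-423-3p. Scaled by the median of ratios, it was 1.148 for miR-191-5p and 1.30 for miR-423-3p. Divided by the main arms of the other 2 loci, it was 1.14 for miR-191-5p, 1.57 for miR-191-3p, 1.43 for miR-425-5p, 1.53 for miR-425-3p, 1.14 for miR-423-5p and 1.31 for miR-423-3p. With only reads at the annotated start, it was 1.23 for miR-191-5p and 1.33 for miR-425-3p. Scaled by untransfected reads without the members and miR-3184, it was 1.27 for miR-191-5p and 1.53 for miR-423-3p. With only reads whose 3p end is annotated or longer, it was 1.23 for miR-191-5p, 2.28 for miR-191-3p, 1.34 for miR-425-5p, 1.35 for miR-425-3p, 1.33 for miR-423-5p and 1.31 for miR-423-3p. The range of the arm ratio was 1.89 for miR-191 with only reads whose 3p end is annotated or longer, 1.19 for miR-425 at the annotated start, and 1.16 for miR-425 and 1.44 for miR-423 with only the most frequent isoform. With only that isoform, the range was 1.75 for miR-191-5p to miR-425-5p and 1.27 for miR-191-5p to miR-423-3p. At the annotated 3p end instead of the most frequent one, the shares of miR-425-5p differed by 1.85 percentage points. With each library left out in turn, the members past 1.5-fold were 0 to 1 and the loci 0 to 1, with no share of all miRNAs or hairpins computed for comparison. The range was then 1.04 to 1.23 for miR-191-5p, 1.28 to 1.97 for miR-191-3p, 1.10 to 1.16 for miR-425-5p, 1.06 to 1.20 for miR-425-3p, 1.09 to 1.18 for miR-423-5p and 1.13 to 1.48 for miR-423-3p. For the arm ratios it was 1.29 to 1.64 for miR-191 and 1.16 to 1.49 for miR-423, and for pairs 1.19 to 1.35 for miR-191-5p to miR-425-5p, 1.12 to 1.23 for miR-191-5p to miR-423-3p and 1.10 to 1.52 for miR-425-5p to miR-423-3p. The shares of the most frequent start differed by 0.143 to 0.349 for miR-191-5p, 0.133 to 0.579 for miR-425-5p and 0.505 to 1.48 for miR-423-3p (percentage points), and those of the most frequent end by 0.0753 to 0.233 for miR-191-5p, 7.10 to 13.1 for miR-425-5p, 8.01 to 11.9 for miR-423-5p and 8.13 to 16.7 for miR-423-3p. The scaling without miR-3184 and the choice of long 3p ends were added after seeing the data. No paired analysis was possible because each condition has only 1 library. Depth limits miR-191-3p most, with 315 to 541 reads per library. Transfection, RNA handling and library making are confounded with the condition, and the counts hold no reads of other small RNAs or spike-ins, so that a change in the total of all miRNAs would not be seen.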
